A study of Rattus norvegicus with 24 samples.

Results

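The genes described are those of the rat major histocompatibility complex (MHC), named RT1, with 9 genes that control or serve antigen presentation. Members were all rows of the count table whose symbol starts with RT1-, together with Nlrc5, Ciita, B2m, Tap1, Tap2, Tapbp, Cd74, Psmb8 and Psmb9. This gave 52 rows of 32883, of which 32 were RT1 class I, 11 RT1 class II and 9 control genes. Poly(A) RNA of 4 tissues (spleen, thymus, liver and brain) had been sequenced from Sprague-Dawley rats, an outbred stock, at 7 months of age. The 24 libraries form 8 groups of 3, with a group labelled SAM exposure and a group labelled sham exposure (Sham) in each tissue. The series title names polychlorinated biphenyls, whereas the treatment label reads SAM, so the exposed animals are called SAM here, and neither dose nor duration is given. All groups share strain and age, and no allele or genetic change is labelled. Numbers in the sample titles were 1, 2, 3 or 5 for SAM and 13 to 17 for Sham. The labels do not state that equal numbers in different tissues are 1 rat, and where replicates are not separate animals the p-values measure only the spread between these samples.

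Class I molecules are a heavy chain paired with beta-2-microglobulin (B2m), and they show peptides made inside the cell to CD8 T cells. Psmb8 and Psmb9 are immunoproteasome subunits that cut those peptides, Tap1 and Tap2 form the pump that carries them into the endoplasmic reticulum, and Tapbp (tapasin) links the pump to the empty heavy chain. Class II molecules are alpha and beta chain pairs on B cells, dendritic cells, macrophages and thymic epithelium. Cd74, the invariant chain, guards their groove, and DM and DO molecules govern peptide exchange. Nlrc5 is the transactivator of class I genes and Ciita that of class II genes. In the rat, RT1-A genes are the classical class I genes, and RT1-B and RT1-D are the classical class II pairs, while most genes named CE, N, M, S or T24 are regarded as non-classical. Rat MHC haplotypes differ in sequence and in the number of class I genes, and many class I genes are near copies of each other. Reads of such copies can be split or lost in counting, so the value of any single class I row is uncertain.

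Start-site windows show what the members' upstream regions have in common and how alike the RT1-A copies are. RefSeq (build GRCr8) gave a window of 300 bases for 37 of the 50 member symbols, and the 250 bases before the start are printed for class II genes RT1-Da, at chr20:4515165-4515414 (+ strand), RT1-Ba, at chr20:4576807-4577056 (+ strand), and RT1-Bb, at chr20:4604119-4604368 (- strand). Class I genes are represented by RT1-A1, at chr20:4906959-4907208 (+ strand), RT1-A2, at chr20:4872621-4872870 (+ strand), and RT1-CE16, at chr20:3265444-3265693 (- strand), and their shared light chain by B2m, at chr3:129549080-129549329 (+ strand). Capitals mark matches, on either strand, to 4 motifs chosen with these windows in view. These were CTGATTGG (called the Y box here), CCTAGCAAC (an X box), GGGATTCCC (a kappa B site) and GAAANNGAA (the core of an interferon-stimulated response element). Which of the 2 count-table rows called RT1-CE16 this RefSeq entry matches is not known.
RT1-Da: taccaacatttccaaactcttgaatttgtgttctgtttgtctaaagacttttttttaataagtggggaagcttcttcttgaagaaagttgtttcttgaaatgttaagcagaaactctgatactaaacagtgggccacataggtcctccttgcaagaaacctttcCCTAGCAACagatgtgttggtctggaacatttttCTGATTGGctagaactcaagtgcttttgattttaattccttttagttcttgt
RT1-Ba: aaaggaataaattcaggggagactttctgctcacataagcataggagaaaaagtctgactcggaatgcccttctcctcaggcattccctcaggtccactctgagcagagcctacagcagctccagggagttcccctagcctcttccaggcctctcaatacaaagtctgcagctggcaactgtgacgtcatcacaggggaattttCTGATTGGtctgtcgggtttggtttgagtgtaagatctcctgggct
RT1-Bb: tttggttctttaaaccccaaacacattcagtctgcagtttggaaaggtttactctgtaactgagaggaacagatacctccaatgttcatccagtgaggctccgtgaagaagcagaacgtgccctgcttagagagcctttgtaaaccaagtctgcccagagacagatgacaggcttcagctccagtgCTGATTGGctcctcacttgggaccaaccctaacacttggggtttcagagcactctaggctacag
RT1-A1: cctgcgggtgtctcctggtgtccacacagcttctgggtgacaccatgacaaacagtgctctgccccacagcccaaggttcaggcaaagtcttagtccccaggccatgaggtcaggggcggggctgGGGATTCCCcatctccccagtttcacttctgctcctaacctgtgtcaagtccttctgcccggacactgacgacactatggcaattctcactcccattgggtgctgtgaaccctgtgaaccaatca
RT1-A2: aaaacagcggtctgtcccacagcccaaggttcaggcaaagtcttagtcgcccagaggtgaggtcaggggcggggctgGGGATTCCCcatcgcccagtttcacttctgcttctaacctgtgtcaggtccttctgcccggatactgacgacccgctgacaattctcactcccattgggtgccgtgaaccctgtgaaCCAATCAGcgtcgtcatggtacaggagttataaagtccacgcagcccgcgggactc
RT1-CE16: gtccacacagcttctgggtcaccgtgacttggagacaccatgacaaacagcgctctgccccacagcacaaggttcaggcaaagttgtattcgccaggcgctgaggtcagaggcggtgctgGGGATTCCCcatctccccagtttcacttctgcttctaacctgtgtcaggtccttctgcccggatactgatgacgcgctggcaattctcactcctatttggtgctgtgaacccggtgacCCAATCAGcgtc
B2m: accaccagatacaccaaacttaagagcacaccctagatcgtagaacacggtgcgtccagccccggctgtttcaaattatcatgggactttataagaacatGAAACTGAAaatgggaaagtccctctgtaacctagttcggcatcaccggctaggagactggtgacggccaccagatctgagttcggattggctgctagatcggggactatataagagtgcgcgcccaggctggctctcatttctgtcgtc

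The Y box letters were in the window of 7 of 9 class II genes and of 7 of 21 class I genes, and in 3.5% of all 33469 windows. Read toward the start, the class II matches were CTGATTGG and the class I matches all its reverse complement, CCAATCAG. Whether these are the same element in both classes was not tested. The X box letters were in RT1-Da and RT1-DOb, and in 0.807% of all windows. The kappa B letters stood in 5 class I windows (RT1-A1, RT1-A2, RT1-CE4, RT1-CE10 and RT1-CE16) and in 0.365% of all windows. The interferon element was found in 5 of 7 control genes (B2m, Psmb8, Tap1, Tap2 and Tapbp), in 3 class I genes and in 9.71% of all windows. The windows of RT1-A1 and RT1-A2 were identical at 92.4% of 251 aligned bases, those of RT1-A2 and RT1-CE16 at 87.8% of 255, and those of RT1-Ba and RT1-Da at 60.2% of 266. The Y box match of RT1-A1 runs across its start and is not capitalised, and no 2 of the motifs overlapped in the printed bases. A match describes letters only.

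Library totals ran from 12.9 to 20.1 M counts (M, 1000000), and levels are given as CPM, the counts of a gene per M counts of its library after TMM scaling within a tissue. Members took 1.94 to 2.22% of all counts in spleen, 0.643 to 0.968% in thymus, 0.201 to 0.292% in liver and 0.0389 to 0.0611% in brain. The low-count filter kept 45 members in thymus, 43 in spleen, 34 in liver and 32 in brain. It removed 6 class I rows in every tissue, all of them named as pseudogenes and none above 10 counts in any library, and Ciita in brain. In the liver library of SAM animal 1, 17.8% of counts were from mitochondrially encoded genes, the highest share of any library. SAM brain libraries 1 and 2 also stood apart from SAM brain library 3: with library 3 left out, 5896 of 15493 genes passed the edgeR test in brain, against 0 of 15126 with it.

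Class II RNA in the Sham animals was highest in spleen, then thymus, then liver and brain. Summed over the 11 class II rows it was 7300 ± 514 CPM (SD, n = 3) in spleen, 2037 ± 331 in thymus, 107 ± 47.2 in liver and 12.1 ± 4.69 in brain. These ranges do not overlap, but CPM was scaled within each tissue and a sum carries no test. In bulk tissue, fewer cells of a type and less RNA per cell cannot be told apart. All 11 class II rows were higher in Sham spleen than in Sham thymus (edgeR quasi-likelihood test, Benjamini-Hochberg adjusted p under 0.05), with a median log2 fold change of 1.91, whereas 30.7% of all 17204 genes tested were higher and 31.6% lower. The classical chains RT1-Da, RT1-Db1, RT1-Ba and RT1-Bb differed by 2.07 ± 0.31 (SE), 2.05 ± 0.26, 1.91 ± 0.27 and 1.74 ± 0.26 on the log2 scale. RT1-DOa and RT1-DOb, the chains of the DO modulator, differed more, by 3.58 ± 0.18 and 2.96 ± 0.16, and RT1-DMa less, by 1.31 ± 0.22. Cd74 was 7419 CPM in spleen and 1751 CPM in thymus, a log2 difference of 2.25 ± 0.33, and Ciita was 327 and 58.1 CPM, a difference of 2.66 ± 0.15. Both passed the edgeR test after Benjamini-Hochberg adjustment, with adjusted p of 6.59e-05 and 1.06e-08.

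Class I rows did not follow a single order between the lymphoid organs. Summed class I RNA was 2486 ± 41.8 CPM in Sham spleen and 2408 ± 191 CPM in Sham thymus, against 580 ± 59.1 in liver and 150 ± 32.2 in brain. Of 26 class I rows tested between spleen and thymus, 12 were higher in spleen, 10 were lower and 4 did not pass. RT1-A2 did not pass, but did so in an alternative fit with animal number as a block (0.93, edgeR adjusted p = 2.24e-05). RT1-A1 was higher in spleen by 0.87 ± 0.17 on the log2 scale, RT1-CE7 by 0.66 ± 0.10 and RT1-T24-4 by 1.06 ± 0.21, while RT1-S3 (0.21 ± 0.19) and RT1-CE4 (0.22 ± 0.10) did not pass. RT1-N3 lay at 377 CPM in thymus and 83.1 CPM in spleen, a log2 difference of -2.01 ± 0.15 (edgeR, Benjamini-Hochberg adjusted p = 1.6e-07). RT1-CE6 lay at 170.0 CPM in thymus and 12.4 CPM in spleen, a difference of -3.61 ± 0.13 (edgeR, adjusted p = 3.98e-10). RT1-CE9-ps1 differed by -4.27 ± 0.20, and RT1-M4, at 2.21 CPM in Sham thymus, had no count in any of the 6 spleen libraries, where 3 counts would be 0.149 to 0.225 CPM.

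Among the peptide-supply genes, Tap2 was 107 CPM in Sham thymus and 12.1 CPM in Sham spleen, a log2 difference of -2.97 ± 0.11 (edgeR, Benjamini-Hochberg adjusted p = 5.37e-10). Its partner Tap1 was 206 and 164 CPM, a difference of -0.16 ± 0.15 that did not pass (edgeR, adjusted p = 0.366). Nlrc5 was 78.3 CPM in thymus and 86.8 CPM in spleen and did not pass either (0.32 ± 0.15, edgeR, adjusted p = 0.0819). In an alternative fit with animal number as a block, Nlrc5 did pass (0.34, edgeR adjusted p = 0.0357). B2m was 1289 CPM in thymus and 2653 CPM in spleen, a log2 difference of 1.21 ± 0.13 that passed. In the GRCr8 order of genes, Tap2, Psmb8, Tap1 and Psmb9 follow each other between RT1-DOb and RT1-DMb. 

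Most members were lower in Sham brain than in the other Sham tissues. Against Sham liver, Sham brain had 4 class I rows higher and 21 lower, 10 of 11 class II rows lower and all 9 control genes lower, where 40.1% of all genes were higher and 41.3% lower. Against Sham brain, thymus had 24 class I rows higher and 1 lower, where 42.2% and 40.3% of all genes were, and spleen had 22 higher and 4 lower, where 41% and 41.4% were. All 11 class II rows and all 9 control genes were higher than in brain in both organs. Against liver, thymus had 10 class II rows higher and 0 lower, where 41.1% and 36.1% of all genes were, and spleen had 11 higher and 0 lower, where 41.2% and 34.9% were. B2m was lower in thymus than in liver by this scaling (-1.97 ± 0.13), and with raw library totals the difference was -0.23. Of the 26 class I rows spleen had 13 higher and 3 lower than liver, and of the 9 control genes thymus had 6 higher and 2 lower and spleen 7 and 2. Comparisons with liver depended on scaling. With raw library totals in place of TMM, the median log2 difference of all genes moved from 0.21 to 1.91 for thymus against liver, and the class I split from 14 higher and 5 lower to 24 higher and 0 lower. For brain against liver the median moved from -0.01 to 1.37, with 5 class I rows higher and 18 lower, and 0 class II rows higher and 6 lower. For spleen against thymus it moved from -0.02 to -0.20 and the class I split was 11 higher and 10 lower. The shares of all genes called with raw totals are not given here.

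**Figure D1:**
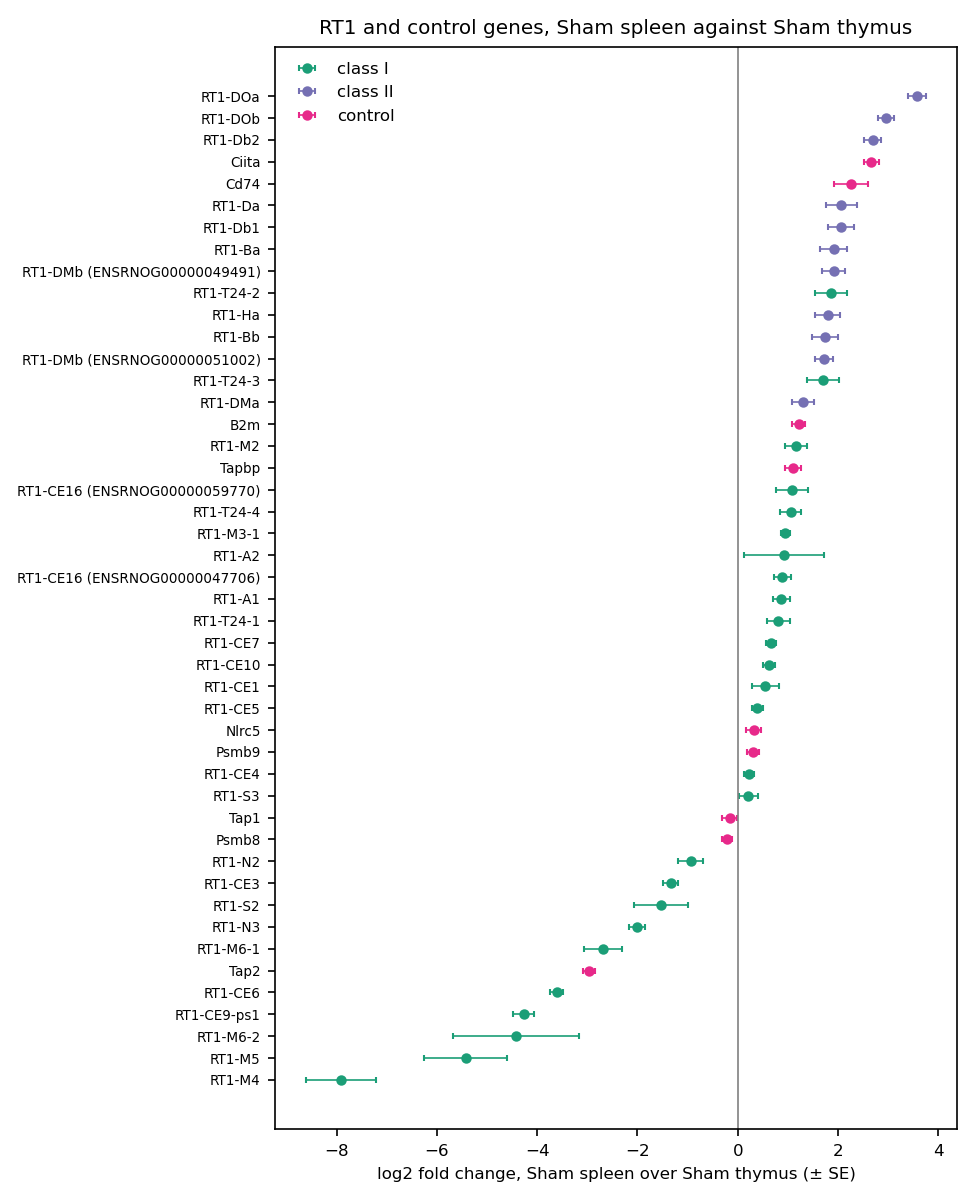
Log2 fold change of each member between Sham spleen and Sham thymus (x axis, edgeR estimate ± SE, 3 libraries a group), with 1 row per gene and colours for class I, class II and control genes. The 11 class II rows lie to the right of 0, and class I rows lie on both sides, from RT1-T24-2 at 1.86 to RT1-M4 at -7.91.

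RT1-A2 had levels that went with the animal number in every tissue. In liver it was 38.5, 282 and 204 CPM in SAM libraries 1, 2 and 3, and 24.7, 25.0 and 133 CPM in Sham libraries 13, 14 and 15. In brain it was 5.65, 25.8 and 16.9 CPM in SAM libraries 1, 2 and 3, and 2.96, 16.4 and 3.24 CPM in Sham libraries 13, 15 and 16. Both tissues had SAM 2, SAM 3 and Sham 15 high, and the exposure groups overlapped. In thymus the levels were 48.9, 209 and 220 CPM for SAM 1, 3 and 5, and 46.1, 201 and 218 CPM for Sham 14, 15 and 17. In spleen they were 105, 405 and 405 CPM for SAM 1, 3 and 5, and 81.4, 345 and 351 CPM for Sham 14, 15 and 17. Libraries numbered 1 and 14 were low in both organs, whichever the exposure. RT1-A2 made up 23.5 to 32.7% of the RT1-A1 and RT1-A2 counts together in every library numbered 1, 13, 14 or 16, and 62.5 to 90.0% in every library numbered 2, 3, 5, 15 or 17.

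This pattern was tested with terms for animal number within exposure, fitted beside tissue, exposure and their interaction over the 24 libraries, a test added after the RT1-A2 values had been seen. Of 46 members, 3 passed (edgeR quasi-likelihood test, Benjamini-Hochberg adjusted over 17623 genes), where 0.0794% of all genes did. RT1-A2 ranked first of all genes (adjusted p = 7.31e-07 by edgeR) and passed with any 1 number left out, the highest adjusted p being 0.00141. The second was RT1-CE16 (ENSRNOG00000047706), with an edgeR adjusted p of 0.000878. The libraries numbered 3 held 97.7 CPM of it in spleen and 51.9 CPM in thymus, where the other 5 libraries spanned 18.3 to 20.7 and 9.06 to 16.3 CPM. For liver the values were 33.1 CPM against 2.92 to 5.44 CPM, and for brain 8.10 against 0.558 to 0.970 CPM. The result rests on number 3: with it left out the call was lost, whereas leaving out any other number kept it. The last was RT1-N2 (edgeR adjusted p = 0.00896), and in the libraries numbered 3 it was 39.2 CPM in thymus and 27.1 CPM in spleen, below all others there (66.1 to 120 and 34.7 to 63.5 CPM). In liver and brain its values for number 3 lay within the others' range, and the call was lost without numbers 3, 14 or 15, with adjusted p up to 0.259. At an unadjusted p under 0.05 there were 14 members of 46, where 3.84% of all genes reached it, and DESeq2 called 8 members of 51, where it called 0.447% of all genes. MHC haplotypes were not typed here, and their part in these differences was not tested.

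**Figure D2:**
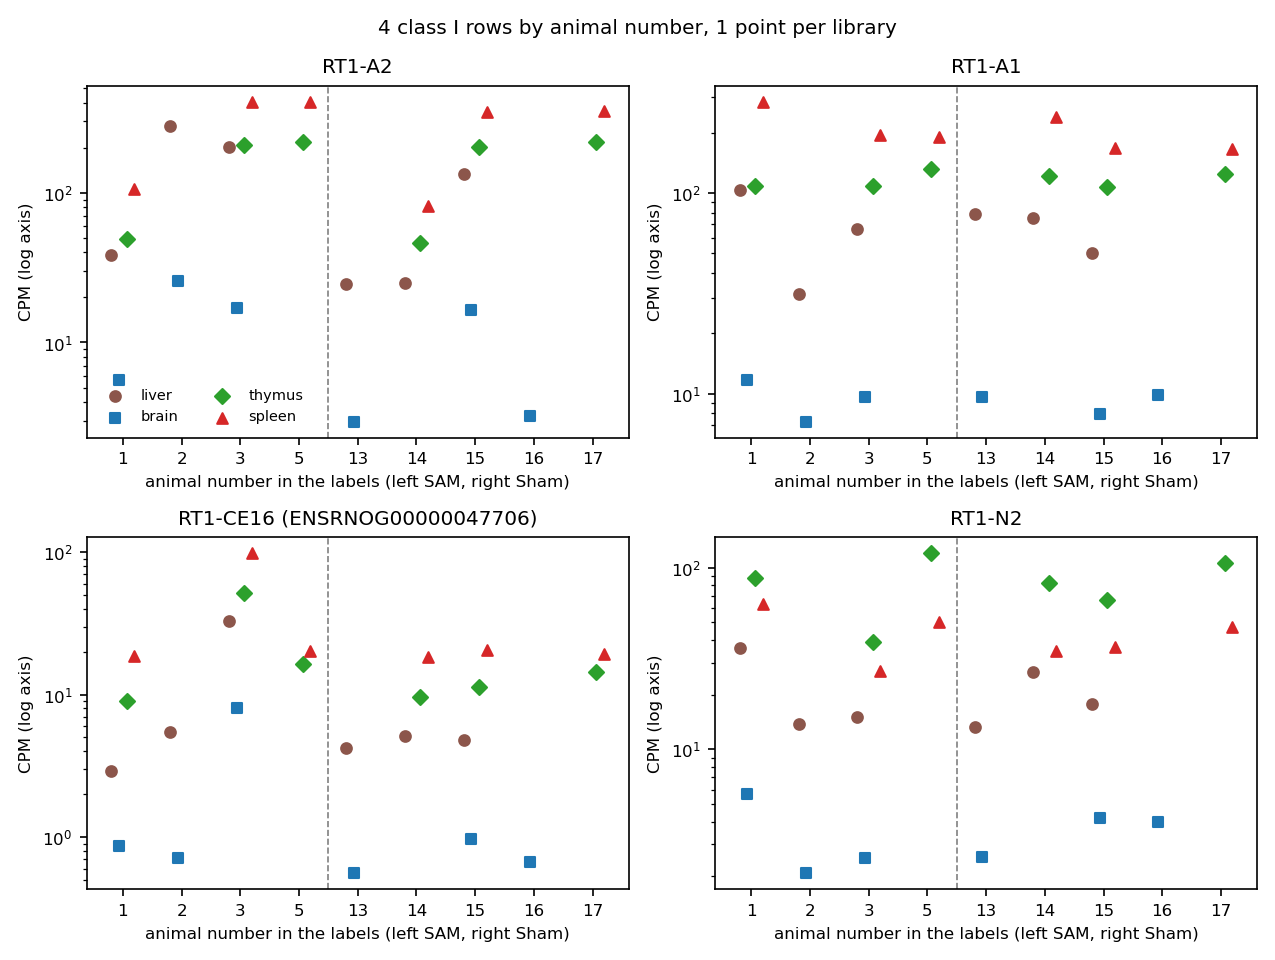
CPM on a log axis of RT1-A2, RT1-A1, RT1-CE16 (ENSRNOG00000047706) and RT1-N2 (y axis) by the number in the sample title (x axis), 1 point per library, coloured by tissue, with SAM left and Sham right of the dashed line. RT1-A2 is low for numbers 1, 13, 14 and 16 in each tissue they have, and RT1-CE16 is high for number 3 in all 4 tissues.

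In liver, some class I genes and peptide-supply genes had higher means in SAM than in Sham, but none passed. edgeR with Benjamini-Hochberg adjustment called 0 of 34 members and 0% of 12130 genes, and DESeq2 called 0 members and 0.0111% of its genes. At an unadjusted p under 0.05, 4 members were higher and 0 lower, where 1.79% and 0.907% of all genes were. RT1-CE4 was 154, 94.9 and 77.5 CPM in SAM libraries 1, 2 and 3 and 64.9, 60.8 and 67.4 CPM in Sham libraries 13, 14 and 15. Its groups did not overlap, and the log2 difference was 0.76 ± 0.26 (edgeR adjusted p = 0.802). Psmb9 was 77.6, 39.7 and 48.6 CPM in SAM and 33.1, 39.7 and 29.1 CPM in Sham, a log2 difference of 0.70 ± 0.27, with SAM 2 and Sham 14 nearly level. Tapbp (0.48 ± 0.20), RT1-CE5 (0.59 ± 0.22) and RT1-CE10 (0.50 ± 0.23) also had groups that did not overlap, as did 5.19% of all genes in this direction, and 0 members were lower without overlap, where 5.63% of all genes were. In each of these 5 genes SAM library 1, the one with most mitochondrial counts, was the highest, and without it the log2 differences of RT1-CE4, RT1-CE5, RT1-CE10, Psmb9 and Tapbp were 0.42, 0.36, 0.22, 0.38 and 0.32. With raw library totals the median difference of all liver genes moved from 0.02 to -0.12.

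The 2 highest and 2 lowest liver folds of RT1 genes with a mean of 1 CPM or more all had overlapping groups. RT1-CE16 (ENSRNOG00000047706) differed by 1.56 ± 0.80 and RT1-A2 by 1.52 ± 0.86, both with the spread over animal numbers described above, and RT1-CE16 (ENSRNOG00000059770) by -1.25 ± 0.90 and RT1-T24-2 by -0.46 ± 0.43. RT1-T24-1 followed at 1.18 ± 0.72, its groups overlapping too. Summed class I RNA was 791 to 847 CPM in SAM and 512 to 619 CPM in Sham, a ratio of 1.43. Without RT1-A2 the sums were 752, 565 and 643 CPM in SAM and 488, 594 and 476 CPM in Sham, which overlap. This step removed 282 CPM from SAM 2 and 25.0 CPM from Sham 14. Near copies may share reads with RT1-A2, so these sums depend on how reads were split. Of 5 red-cell rows, from 4 symbols, 4 had higher and 1 had lower SAM values without overlap. The sum of these rows was 483 to 1128 CPM in SAM and 345 to 441 CPM in Sham. The interferon response sum was 586 to 611 CPM in SAM and 482 to 585 CPM in Sham, with SAM 2 and Sham 14 nearly level. Of its 18 genes, 11 had a positive difference and 2 were higher without overlap. The part of either in the liver result was not tested. The 6 class II rows tested all had overlapping groups, with sums of 76.3 to 121 CPM in SAM and 72.9 to 161 CPM in Sham. Nlrc5 (-0.22 ± 0.38), Ciita (-0.11 ± 0.28), B2m (0.00 ± 0.15), Cd74 (0.01 ± 0.36), Tap1 (0.30 ± 0.19), Tap2 (0.12 ± 0.30) and Psmb8 (0.28 ± 0.20) overlapped too.

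In brain, the classical class II chains RT1-Da, RT1-Db1, RT1-Ba and RT1-Bb, B2m and the immunoproteasome genes had higher SAM means, but none passed the edgeR test. Of the 5 class II rows tested, 4 had a positive difference and RT1-DOb a negative one (-0.35 ± 0.57), and the other 6 rows did not pass the low-count filter. edgeR with Benjamini-Hochberg adjustment called 0 of 32 members and 0% of 15126 genes, while DESeq2 called 2, B2m and RT1-Db1, and 2.35% of 21613 genes. At an unadjusted p under 0.05, 4 members were higher and 0 lower, where 11.9% and 8.61% of all genes were, so the share of members (4 of 32) is near that of all genes. RT1-Db1, a class II beta chain, was 4.67, 6.24 and 5.19 CPM in SAM libraries 1, 2 and 3 and 1.79, 2.06 and 2.99 CPM in Sham libraries 13, 15 and 16. The groups did not overlap, and the log2 difference was 1.23 ± 0.25 (edgeR adjusted p = 0.221, DESeq2 adjusted p = 0.0059). RT1-Da, its alpha chain, was 5.87, 7.85 and 9.24 CPM in SAM and 2.68, 3.27 and 5.97 CPM in Sham. Here SAM 1 lay just below Sham 16, and the difference was 0.93 ± 0.33 (edgeR adjusted p = 0.225). Summed class II RNA was 18.6 to 25.8 CPM in SAM and 8.65 to 17.5 CPM in Sham, a ratio of 1.79, and these values rest on few counts.

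B2m was 336, 332 and 302 CPM in SAM and 221, 254 and 252 CPM in Sham brain, groups that did not overlap, with a log2 difference of 0.42 ± 0.10 (edgeR adjusted p = 0.221, DESeq2 adjusted p = 0.0125). Psmb8 was 3.15, 3.87 and 2.27 CPM in SAM and 1.79, 1.82 and 2.01 CPM in Sham, a difference of 0.73 ± 0.24 (edgeR adjusted p = 0.222). Psmb9 (0.41 ± 0.18) and RT1-CE4 (0.28 ± 0.13) also had all SAM values above all Sham values, 5 members in all, where 11.6% of all genes did, and 0 members were lower without overlap, where 12.2% were. Cd74 (0.66 ± 0.31), Tap1 (0.15 ± 0.20), Tap2 (0.33 ± 0.32), Tapbp (0.23 ± 0.17) and Nlrc5 (0.15 ± 0.31) overlapped. Among RT1 genes with a mean of 1 CPM or more the lowest were RT1-M6-1 (-1.48 ± 0.74) and RT1-M6-2 (-0.73 ± 0.64), and RT1-M4, below that level, had -0.96 ± 0.56. They had overlapping groups, with RT1-M6-1 at 0.217, 0.476 and 2.27 CPM in SAM and 3.57, 2.18 and 1.96 CPM in Sham. SAM 1 and 2 were low and SAM 3 lay within the Sham range. Without SAM 3, edgeR called 6 members, B2m, Psmb8 and RT1-Db1 higher and RT1-M4, RT1-M6-1 and RT1-M6-2 lower. These are 6 of 33 members tested, a smaller share than the 38.1% of all genes called in that fit. SAM 3 alone against the 3 Sham libraries is 1 SAM library and carries no test here. On the log2 scale it gave 1.18 for RT1-Db1, 0.32 for B2m, 0.28 for Psmb8, -0.18 for RT1-M6-1 and 0.37 for RT1-M6-2. All 12 tested macrophage and microglia markers had a positive log2 difference, with 1 set of groups apart, their sum being 178 to 316 CPM in SAM and 213 to 255 CPM in Sham. Of 3 dendritic cell genes tested, 1 had a positive difference. The sum of the dendritic cell list was 14.3 to 38.6 CPM in SAM and 31.6 to 40.4 CPM in Sham. Blood genes summed to 172 to 463 CPM in SAM and 137 to 202 CPM in Sham. The part of any of these lists in the class II values was not tested.

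**Figure D3:**
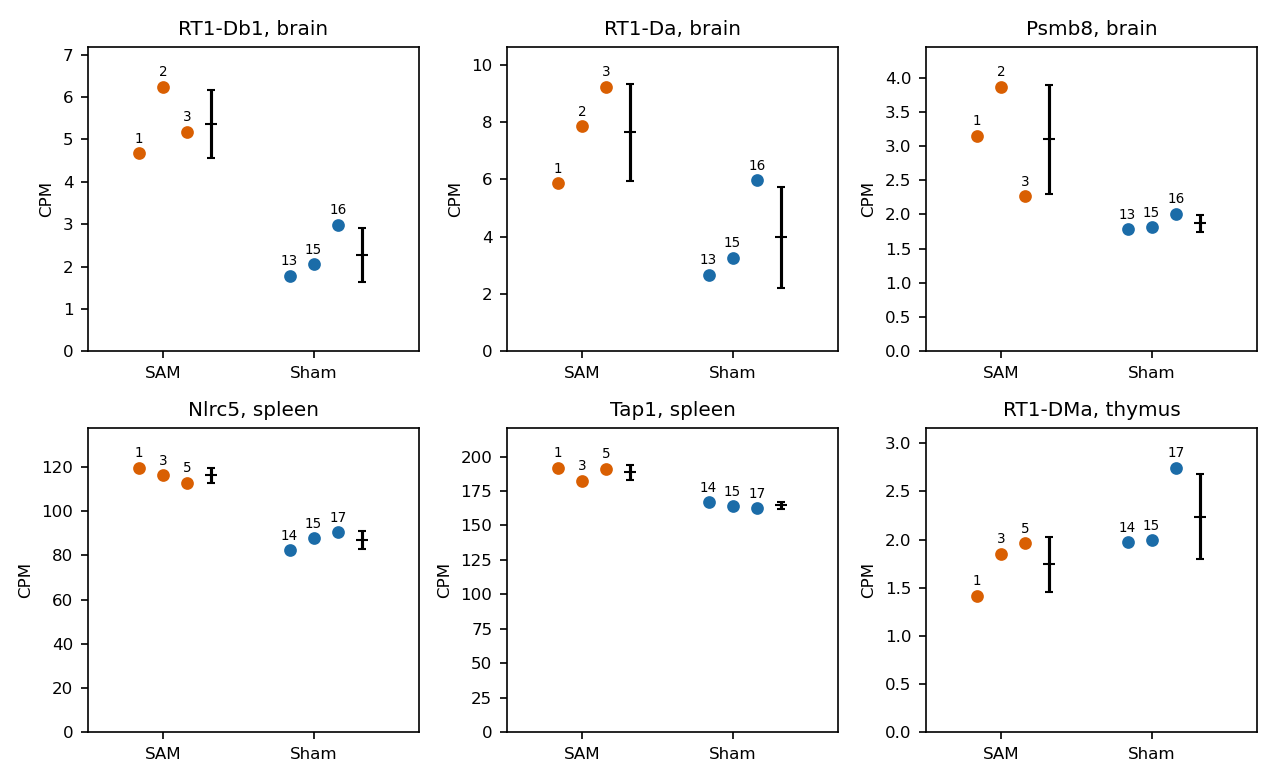
CPM (y axis, from 0) of 6 members in SAM and Sham libraries, numbered as in the sample titles, with mean ± SD of 3 at the right of each group. In spleen the Nlrc5 values of 113 to 120 CPM in SAM lie above the 82.4 to 90.4 CPM of Sham, and in brain RT1-Db1 lies at 4.67 to 6.24 against 1.79 to 2.99 CPM.

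In thymus, edgeR with Benjamini-Hochberg adjustment called 0 of 45 members and 0% of 15036 genes, and DESeq2 called 0 members and 0.466% of its genes. At an unadjusted p under 0.05, 1 member was higher and 2 lower, where 1.66% and 4.48% of all genes were, and 1 and 3 did not overlap, where 4.97% and 6.96% of all genes did. RT1-M2 was 11.2, 25.2 and 23.0 CPM in SAM libraries 1, 3 and 5 and 35.8, 33.7 and 28.5 CPM in Sham libraries 14, 15 and 17. Every SAM value was below every Sham value, SAM 1 by most, and the log2 difference was -0.72 ± 0.27 (edgeR adjusted p = 0.78). RT1-M6-1 (-0.68 ± 0.24) and RT1-DMa (-0.36 ± 0.25), a chain of the peptide editor DM, were also lower without overlap. RT1-S2 was 5.36, 6.62 and 3.73 CPM in SAM and 3.39, 2.58 and 3.66 CPM in Sham, a difference of 0.71 ± 0.26 (edgeR adjusted p = 0.746), and RT1-CE16 (ENSRNOG00000047706) had 1.13 ± 0.57 with number 3 high. Of the 11 class II rows, 10 had a negative difference, with a median of -0.19 against -0.00 over all genes. SAM library 1 had the lowest class II sum, 1323 CPM, where the other 5 libraries spanned 1712 to 2374 CPM, and without it the class II median was -0.01. In the thymic epithelium marker list, 7 of 10 genes were lower without overlap, their sum being 848 to 1166 CPM in SAM and 1569 to 1651 CPM in Sham. The T cell sum was 6918 to 7259 CPM in SAM and 6315 to 6777 CPM in Sham, with 8 of 8 genes positive. A positive difference was found in 1 of 9 B cell genes, 2 of 9 dendritic cell genes and 2 of 13 macrophage genes. Of the macrophage genes, 2 were lower without overlap. The B cell, dendritic cell and macrophage sums overlapped, each being lowest in SAM library 1. The part of any of these lists in the class II values was not tested. Among the control genes Tap2 had the largest difference against its error (0.13 ± 0.07), and Cd74 (-0.19 ± 0.19), Ciita (-0.10 ± 0.21), Nlrc5 (0.01 ± 0.18) and B2m (-0.06 ± 0.14) overlapped.

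In spleen, Nlrc5 was 120, 116 and 113 CPM in SAM libraries 1, 3 and 5 and 82.4, 87.7 and 90.4 CPM in Sham libraries 14, 15 and 17. All SAM values lay above all Sham values, and the log2 difference was 0.42 ± 0.06. The unadjusted p of 0.000129 ranked second of 14530 genes, but the edgeR adjusted p was 0.94, and DESeq2 gave an adjusted p of 0.00751. Leaving out any 1 library kept the difference between 0.39 and 0.45. edgeR with Benjamini-Hochberg adjustment called 0 of 43 members and 0% of all genes, and DESeq2 called 1 member, Nlrc5, and 0.0343% of its genes (7 of 20436). At an unadjusted p under 0.05, 3 members were higher and 1 lower, where 2.22% and 1.89% of all genes were. Tap1 was 192, 182 and 191 CPM in SAM and 167, 164 and 163 CPM in Sham, again without overlap, a difference of 0.20 ± 0.05 (edgeR adjusted p = 0.967). It and Nlrc5 were the 2 members higher without overlap, as were 4.47% of all genes. RT1-S3 differed by 0.22 ± 0.10, its groups overlapping.

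None of the class I genes passed in spleen, and whether each of these rows is a target of Nlrc5 was not tested. Of 23 tested, 14 had a positive and 9 a negative difference, with a median of 0.09 against 0.00 over all genes. RT1-CE16 (ENSRNOG00000047706) had the highest, 1.24 ± 0.60, its groups overlapping, with number 3 high. RT1-CE4 differed by 0.11 ± 0.11, RT1-CE7 by 0.10 ± 0.16, RT1-A1 by 0.23 ± 0.19, RT1-N2 by 0.25 ± 0.28, B2m by 0.11 ± 0.09, Psmb8 by 0.08 ± 0.06, Psmb9 by 0.12 ± 0.08, Tap2 by 0.09 ± 0.10 and Tapbp by 0.01 ± 0.09. Summed class I RNA was 2628 to 2831 CPM in SAM and 2449 to 2531 CPM in Sham, a ratio of 1.11. Without RT1-A2 the groups overlapped (2224 to 2720 and 2127 to 2368 CPM), again sums that depend on how reads were split among near copies. All 11 class II rows had a negative difference, with a median of -0.08. RT1-DMb (ENSRNOG00000049491) was 9.59, 9.43 and 12.6 CPM in SAM and 12.5, 13.5 and 14.03 CPM in Sham, a difference of -0.34 ± 0.14 with SAM 5 just above Sham 14. RT1-DMa (-0.28 ± 0.16) was the 1 member lower without overlap, as were 4.74% of all genes. Ciita (0.04 ± 0.12) and Cd74 (-0.13 ± 0.11) overlapped. Beside these, 17 of 18 interferon response genes had a positive difference (4 at an unadjusted p under 0.05), as did 8 of 8 T cell genes, while 3 of 9 B cell genes were lower without overlap. The interferon sum was 2103 to 2870 CPM in SAM and 1934 to 2363 CPM in Sham, and the T cell sum 857 to 1000 and 713 to 851 CPM. Of 9 dendritic cell genes 7 had a positive difference, their sum being 319 to 361 CPM in SAM and 287 to 309 CPM in Sham, which does not overlap. For these cell and interferon genes, their part in the Nlrc5 difference was not tested.

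**Figure D4:**
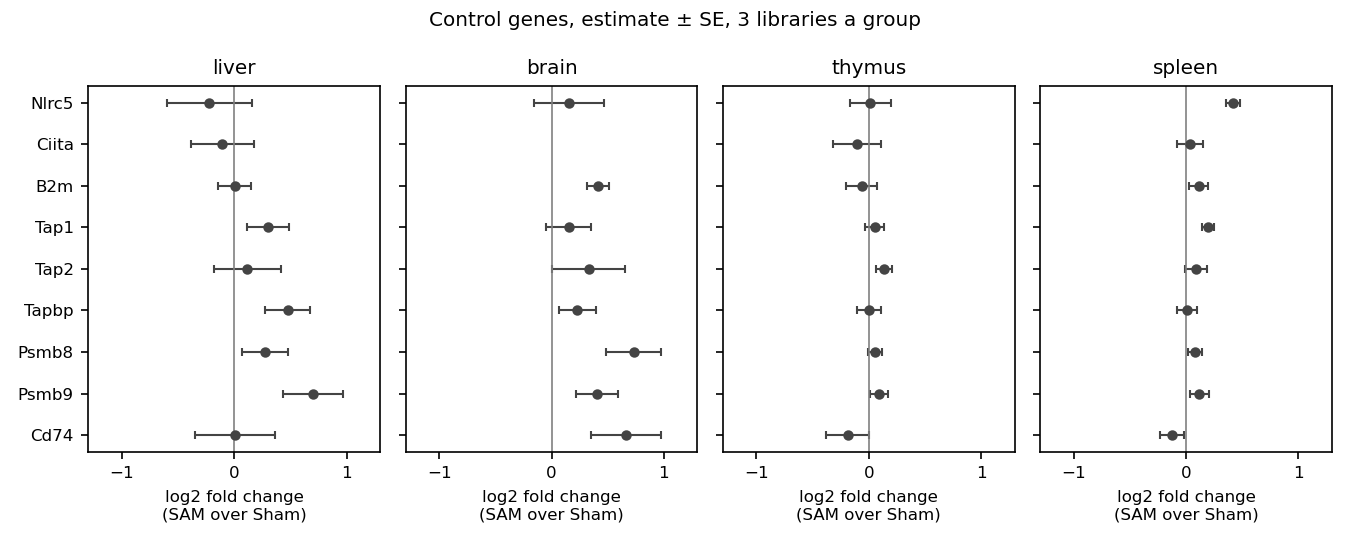
Log2 fold change of SAM over Sham (x axis, edgeR estimate ± SE, 3 libraries a group) for the 9 control genes in each tissue. Ciita was not tested in brain, and Nlrc5 in spleen (0.42 ± 0.06) is the estimate farthest from 0 against its error.

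Whether the exposure difference varied over tissues was tested directly. edgeR with Benjamini-Hochberg adjustment called 0 of 46 members over the 4 tissues, where 0.0113% of 17623 genes passed, and the lowest adjusted p was 0.375, for RT1-Db1. At an unadjusted p under 0.05 there was 1 member, where 9.2% of genes reached it. Between spleen and thymus edgeR called 0 of 45 members and 0% of 15781 genes, with 1 member, RT1-M6-1, at an unadjusted p under 0.05, where 4.11% of genes reached it. DESeq2 called 0 members in both tests, where it called 1.27% and 0.0132% of all genes. The Nlrc5 difference in spleen is thus not shown to differ from that in the other tissues.

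**Figure D5:**
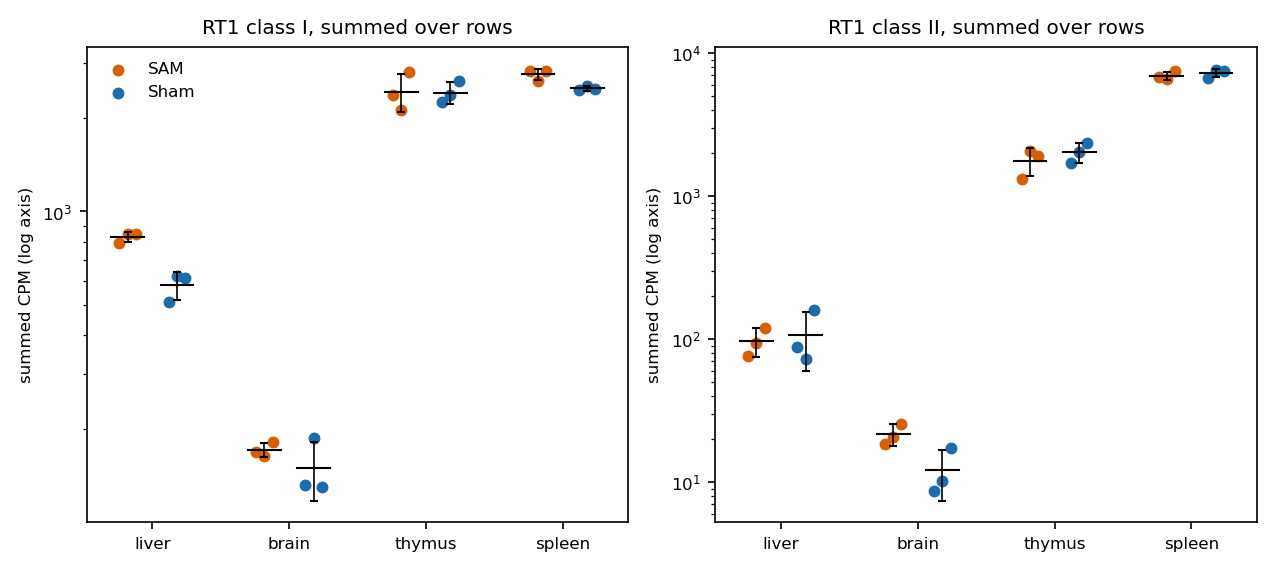
Summed CPM on a log axis of the RT1 class I (left) and class II (right) rows by tissue, 1 point per library, with mean ± SD of 3 in black. SAM and Sham do not overlap for class I in liver and spleen and for class II in brain. The class I sums of liver and of spleen overlap once RT1-A2 is left out, a step that depends on how reads were split among near copies.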

How the data were processed

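The deposited table holds the authors' raw counts, whole numbers for each gene in 24 libraries. The labels' protocols name RNeasy extraction and a TruSeq stranded mRNA kit, and the submitters' processing notes list STAR 2.2.1 and rn6. How reads were counted, with which strand setting and annotation, is not given in the sources used here. Near copies and overlapping genes may share reads. Library totals lay between 12.9 and 20.1 M counts.

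Each tissue was fitted alone with edgeR 4.0.16 in R 4.3.3 (TMM, filterByExpr with a minimum count of 10, quasi-likelihood test, Benjamini-Hochberg over all genes tested at 0.05). The interaction over 4 tissues used 24 libraries, that of spleen and thymus 12, and the Sham tissue pairs the 12 Sham libraries. DESeq2 1.42.0, other scalings, no filter, each library left out and a replicate block were alternatives. Methods were tested on simulated data. Genes named are the 9 control genes, members called, the 6 of each RT1 class with the highest mean CPM, and in each tissue the 2 highest and 2 lowest RT1 folds at a mean of 1 CPM or more. Others are named for unadjusted p or groups that did not overlap. Members and lists were chosen with earlier results of these data known. Of 135 list symbols 129 were found. Equal numbers were not taken as pairs: over 25 same-number pairs the deviations correlated at -0.01 to 0.17, with 2 pairs over 0.1. Such low correlations do not show that equal numbers are different rats, and RT1-A2 levels went with the number. Sequences are from RefSeq, build GRCr8.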

Additional observations from a re-analysis of the deposited data

How the results depend on the processing

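In the SAM against Sham comparisons, member calls differed from 0 only with DESeq2, which called 2 in brain and 1 in spleen, and with a library left out, which gave 0 to 6 in brain and 0 in liver, thymus and spleen. Over the 4 tissues the interaction gave 0 to 1 members with a library left out, RT1-M6-1 being called without SAM brain 3, where 990 of 17925 genes were. The animal-number test, with alternatives chosen after seeing the data, called 8 members with DESeq2 and 1 to 3 with a number left out. Signs turned for RT1-CE16 (ENSRNOG00000047706) in liver without SAM 3 (-0.15, range to 2.02), for RT1-M6-2 in brain without SAM 1 and 2 (0.37) and for RT1-N2 in spleen without SAM 1 (-0.036, range to 0.53). The mean class I sum in SAM liver was 795 CPM with raw totals. Without RT1-A2 the mean sums were 654 (SAM liver), 519 (Sham liver), 155 (SAM brain), 2456 (SAM spleen) and 2227 CPM (Sham spleen). With animal number as a replicate block, 0 members passed either interaction, and 41 of 46 passed between Sham spleen and thymus. Without the block, 30.7% of all genes were higher in Sham spleen and 31.6% lower, and the shares with the block are not given here. Members passing with the block now included RT1-A2 (0.93, edgeR adjusted p = 2.24e-05) and Nlrc5 (0.34, edgeR adjusted p = 0.0357). In a check of pairing, 3 of 6 thymus libraries correlated best with their own number in spleen. Psmb8 and Psmb9, near the threshold between Sham spleen and thymus, changed sides with scaling. The cause of these changes was not tested. Brain class II values rest on few counts, and whether depth limited the calls was not tested.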
